A study of Homo sapiens with 6 samples.

Results

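Iron import, storage and export were examined through 10 genes, chosen by name from a table of 58735 human genes: the exporter gene SLC40A1 (ferroportin), the ferroxidase gene HEPH (hephaestin), the hormone gene HAMP (hepcidin), the import genes TFRC (transferrin receptor) and SLC11A2 (DMT1), the ferritin genes FTH1 and FTL, the ferritin receptor gene NCOA4, and the iron regulatory protein genes ACO1 (IRP1) and IREB2 (IRP2). SLC40A1 had been picked for its higher level in shPAK5 in this same comparison, and the others are its partners in iron handling, so the values of all 10 are given as a description and no test of them is offered as support. The values came from RNA sequencing of 6 libraries of cells labelled MB231, a human breast cancer cell line. There were 3 shPAK5 libraries, whose label gives a PAK5 knockdown (PAK5 is a kinase of the p21-activated family), and 3 shNC libraries, labelled wild type. The hairpin sequences, the number of clones and whether the replicates came from separate cultures were not given, and the spread behind every p-value may therefore be technical.

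Iron enters most cells bound to transferrin, through the transferrin receptor, and leaves the endosome through DMT1. Iron that is not used is stored in ferritin, a shell of heavy and light chains, and NCOA4 carries ferritin to the lysosome when iron is needed. Ferroportin is the known iron exporter of vertebrate cells. It works with a ferroxidase such as hephaestin, and the hormone hepcidin binds it and causes its degradation. When iron is scarce, IRP1 and IRP2 bind stem-loops called iron-responsive elements: bound at the start of an mRNA they block its translation, and bound near the end of the TFRC mRNA they protect it from decay. TFRC mRNA is therefore known to move with the cell's iron state, whereas ferritin and ferroportin also change at the level of protein, which was not measured here.

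The elements are shown because they are what the mRNAs of import, storage and export share. They were searched in the GENCODE 29 coding transcripts (GRCh38), on the mRNA strand, as a C, 5 bases, a loop CAGTGN or CAGAGN and 5 bases that pair with the first 5, flanked by 6 bases on each side of which at least 4 pair. G paired with T was allowed. The loop is in capitals.
SLC40A1, 5′ UTR, chr2:189580661-189580689, minus strand: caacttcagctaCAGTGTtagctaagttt
FTH1, 5′ UTR, chr11:61967574-61967602, minus strand: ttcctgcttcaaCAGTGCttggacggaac
FTL, 5′ UTR, chr19:48965335-48965363, plus strand: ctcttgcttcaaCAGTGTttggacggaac
TFRC, first of 5 in the 3′ UTR, chr3:196051029-196051057, minus strand: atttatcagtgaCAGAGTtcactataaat
TFRC, second of 5 in the 3′ UTR, chr3:196050979-196051007, minus strand: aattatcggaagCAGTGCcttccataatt
SLC11A2, 3′ UTR, chr12:50988268-50988297, minus strand: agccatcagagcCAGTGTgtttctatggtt

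The SLC11A2 element was found in a second form of the search that allowed 1 unpaired base after the loop, which 100 of the 19684 genes searched hold in a 3′ UTR (0.508%). The plain form occurred in the 5′ UTR of 17 genes (0.0864%) and in the 3′ UTR of 43 genes (0.218%). In TFRC the first loop reads CAGAGT, and the other 4 read CAGTGN. Neither form matched a coding transcript of HEPH, HAMP, NCOA4, ACO1 or IREB2, which says only that these letters are not there. In SLC40A1 the element lies in 1 annotated coding transcript, and in SLC11A2 it lies in 5. The table gives 1 value per gene, so in either gene any forms with and without the element cannot be told apart. A match is a description of the sequence, and binding of the regulatory proteins was not measured.

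**Figure D1:**
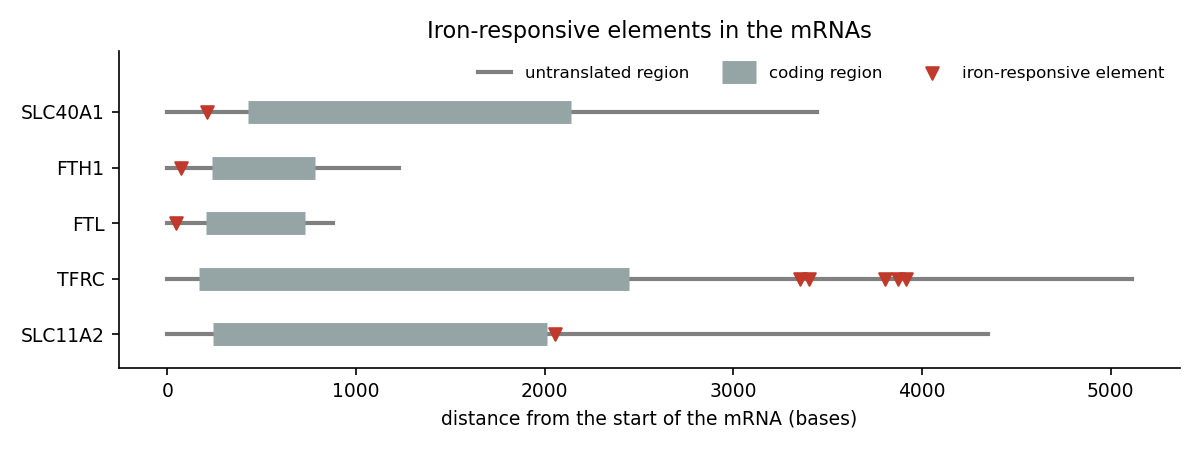
Position of the iron-responsive elements (triangles) in 1 GENCODE 29 mRNA of each gene, with the distance from the start of the mRNA in bases on the x axis, untranslated regions as lines and coding regions as boxes. The element stands before the coding region in SLC40A1, FTH1 and FTL, and after it in TFRC, with 5 elements, and in SLC11A2, with 1.

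The libraries held 15085168 to 18146091 reads, recovered from FPKM (a level corrected for exon length and depth) and gene length. PAK5 had 0 reads in all 6 libraries, a count that allows up to 0.0335 to 0.0403 FPKM per library, so the knockdown could not be checked. shNC replicate 1 stood apart: its counts differed from those of the other shNC libraries by a chi-square of 9.31 and 5.36 per degree of freedom over 13710 genes, against 2.32 to 3.22 for the other pairs within a group. MDA-MB-231, which the label was taken to mean, is known as a mesenchymal line without estrogen receptor. ESR1 was near 0. Of 7 mesenchymal markers, VIM averaged 164 FPKM in shPAK5 and 149 FPKM in shNC, AXL 21.3 FPKM in shPAK5 and 19.2 FPKM in shNC, and ZEB1 2.24 FPKM in shPAK5 and 2.58 FPKM in shNC, whereas CDH2 and TWIST1 had 0 reads and FN1 and SPARC were under 1 FPKM in both groups. Of 6 epithelial markers the lowest were ESRP1, near 0, and CDH1, which averaged 5.84 FPKM in shPAK5 and 4.64 FPKM in shNC. The epithelial list, whose level came mostly from KRT8, KRT18 and KRT19, summed to 3341 to 3394 FPKM in shPAK5 and to 3323 to 3484 FPKM in shNC, and the intestinal cadherin CDH17 averaged 584 ± 7.33 FPKM in shPAK5 and 537 ± 2.93 FPKM in shNC (SD, n = 3 each). With markers of both states present, the cells are called by their label only.

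Ferroportin, the exporter, was higher in every shPAK5 library. SLC40A1 (ENSG00000138449, chromosome 2, 189560579 to 189583758, minus strand, GRCh38) was at 9.82, 9.91 and 9.98 FPKM in shPAK5 replicates 1 to 3, against 7.20, 7.14 and 6.83 FPKM in shNC replicates 1 to 3. The groups did not overlap, with means of 9.90 ± 0.0766 FPKM in shPAK5 and 7.06 ± 0.197 FPKM in shNC (SD, n = 3 each), a ratio of 1.40. The values rested on 652 to 772 reads per library in shPAK5 and on 493 to 547 in shNC. At such read numbers counting error alone is larger than the SD of either group, so the small spread is not read as a result. No exon of another annotated gene overlapped those of SLC40A1. On the log2(FPKM + 1) scale, which understates changes of low genes, the difference was 0.44 ± 0.05 (SE), with a 95% interval of 0.33 to 0.54. It was 0.45 without shNC replicate 1. In such bulk samples, more cells that express a gene and more RNA per cell cannot be told apart.

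**Figure D2:**
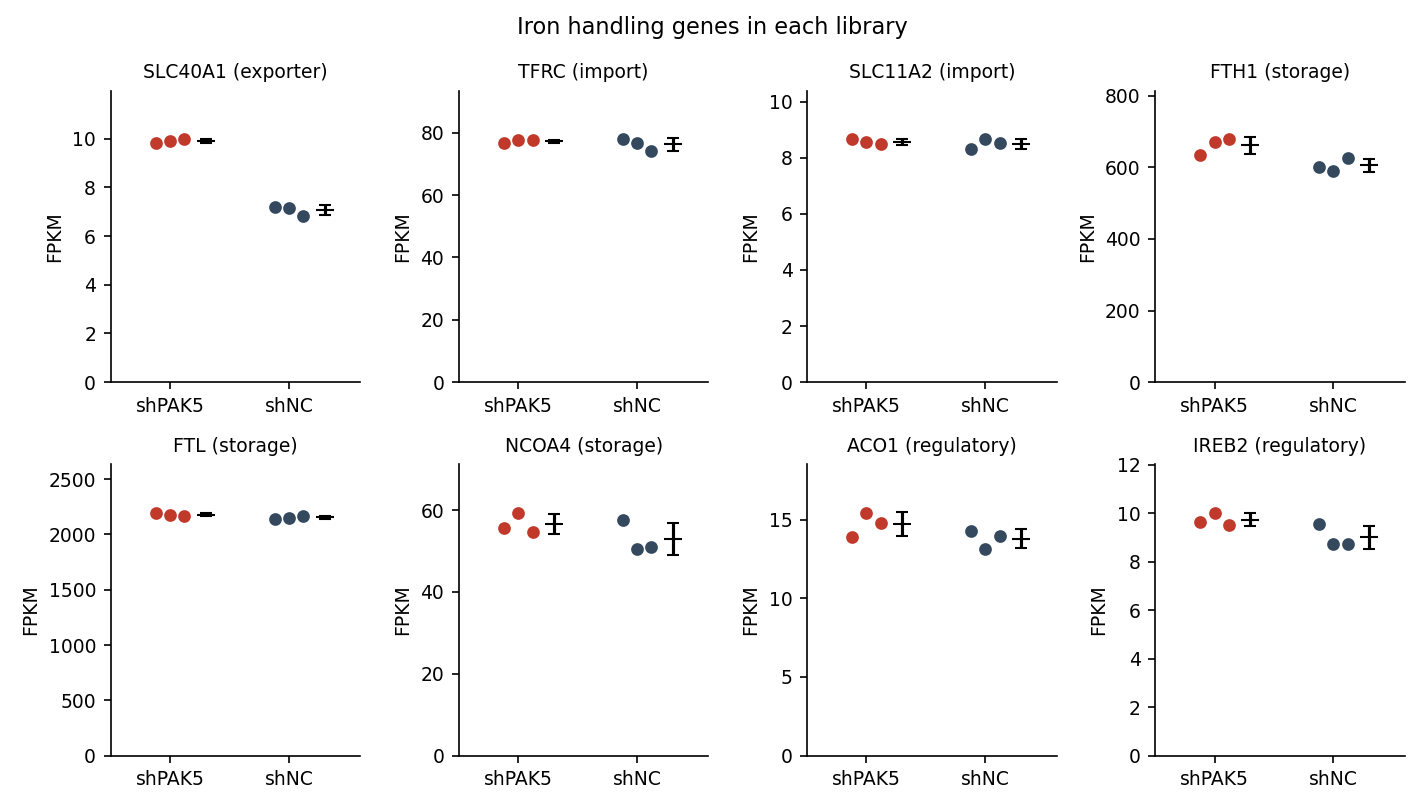
FPKM in each library (points) of the 8 iron handling genes that averaged 1 FPKM or more, with the mean ± SD of the 3 libraries of a group beside them, and y axes that start at 0. In SLC40A1 and FTH1 the 3 shPAK5 points lie above the 3 shNC points, and in the other 6 genes the groups overlap.

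The partners of ferroportin at the cell surface were almost absent as mRNA. HEPH, whose product oxidizes exported iron, had 8, 0 and 1 reads in shPAK5 replicates 1 to 3 and 2, 8 and 3 reads in shNC replicates 1 to 3, at most 0.0670 FPKM. HAMP, whose product is the hormone that degrades ferroportin, had 1 read in shPAK5 replicate 1 and 0 reads in the other 5 libraries. In those 5 a count of 0 allows up to 0.0568 to 0.0660 FPKM per library, for counting error only. Neither gene passed the filter of a mean of 1 FPKM, and no difference between groups was detectable at this depth. The other ferroxidase genes were also low: CP was at 0.0271 FPKM in shPAK5 and 0.0240 FPKM in shNC on average, and HEPHL1 at 0.132 FPKM in shPAK5 and 0.111 FPKM in shNC.

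The import genes lay at nearly equal levels in both groups. TFRC, which takes up transferrin, was at 76.7, 77.6 and 77.6 FPKM in shPAK5 replicates 1 to 3 and at 78.0, 76.8 and 74.1 FPKM in shNC replicates 1 to 3. The groups overlapped, with 9241 to 10976 reads behind each value, and the 95% interval of the fold ran from 0.955 to 1.07 on the scale of FPKM + 1. SLC11A2, whose product moves ferrous iron out of the endosome, was at 8.66, 8.54 and 8.47 FPKM in shPAK5 replicates 1 to 3 and at 8.31, 8.66 and 8.54 FPKM in shNC replicates 1 to 3. These groups overlapped too, and the interval of the fold ran from 0.935 to 1.08.

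Of the ferritin chains, the heavy chain gene stood slightly higher in shPAK5 and the light chain gene did not separate the groups. FTH1, whose product oxidizes iron as it enters ferritin, was at 635, 669 and 678 FPKM in shPAK5 replicates 1 to 3 and at 601, 588 and 626 FPKM in shNC replicates 1 to 3. The groups did not overlap, although the gap between the lowest shPAK5 and the highest shNC library was smaller than the SD within either group. The means were 661 ± 22.8 FPKM in shPAK5 and 605 ± 19.1 FPKM in shNC (SD, n = 3 each), a ratio of 1.09, and the log2 difference was 0.13 ± 0.04 (SE). FTL, which helps to form the iron core, was at 2197, 2175 and 2165 FPKM in shPAK5 replicates 1 to 3 and at 2143, 2150 and 2166 FPKM in shNC replicates 1 to 3. It differed by 0.02 ± 0.03 (SE) on the log2 scale, with overlapping groups. There were 3.30 ± 0.141 FPKM of FTL per FPKM of FTH1 in shPAK5 and 3.56 ± 0.0973 in shNC, and the highest shPAK5 library (3.46) and the lowest shNC library (3.46) nearly met.

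Ferritin genes have many pseudogene copies, and the way the authors assigned shared reads was not given. The table holds 25 FTH1 and 16 FTL pseudogenes, of which 11 and 4 had any read. Their reads came to 0.598 to 0.755% of the FTH1 family in shPAK5 and to 0.674 to 0.778% in shNC, and to at most 0.0505% of the FTL family in any library. The most abundant were FTH1P2, at 10.3 ± 2.10 FPKM in shPAK5 and 11.05 ± 0.622 FPKM in shNC, and FTH1P8, at 6.26 ± 0.343 FPKM in shPAK5 and 5.76 ± 0.545 FPKM in shNC (SD, n = 3 each). Of the FTL copies FTLP12 and FTLP14 led, each under 1 FPKM on average in both groups. The exons of FTH1 are overlapped over 62.4% of their length by BEST1 on the other strand. BEST1 averaged only 0.148 FPKM, but without strand information its reads over the shared bases could have been counted to either gene.

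NCOA4, the receptor that delivers ferritin to lysosomes, was at 55.6, 59.4 and 54.7 FPKM in shPAK5 replicates 1 to 3 and at 57.5, 50.4 and 50.9 FPKM in shNC replicates 1 to 3. Its groups overlapped because shNC replicate 1 lay among the shPAK5 libraries. The log2 difference was 0.10 ± 0.06 (SE), and without shNC replicate 1 it was 0.16.

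The iron regulatory protein genes did not separate the groups. ACO1, whose product is an aconitase when it holds an iron-sulfur cluster and binds RNA when it does not, was at 13.9, 15.4 and 14.8 FPKM in shPAK5 replicates 1 to 3 and at 14.3, 13.2 and 13.9 FPKM in shNC replicates 1 to 3. IREB2, whose product is degraded when iron is plentiful, was at 9.64, 10.03 and 9.54 FPKM in shPAK5 replicates 1 to 3 and at 9.57, 8.73 and 8.75 FPKM in shNC replicates 1 to 3. In each gene the groups overlapped. The log2 differences were 0.09 ± 0.06 (SE) for ACO1 and 0.10 ± 0.05 (SE) for IREB2, with 95% intervals that ran from -0.04 to 0.21 and from -0.02 to 0.22. The ratio of ACO1 to IREB2 was 1.51 ± 0.0589 in shPAK5 and 1.53 ± 0.0531 in shNC (SD, n = 3 each).

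**Figure D3:**
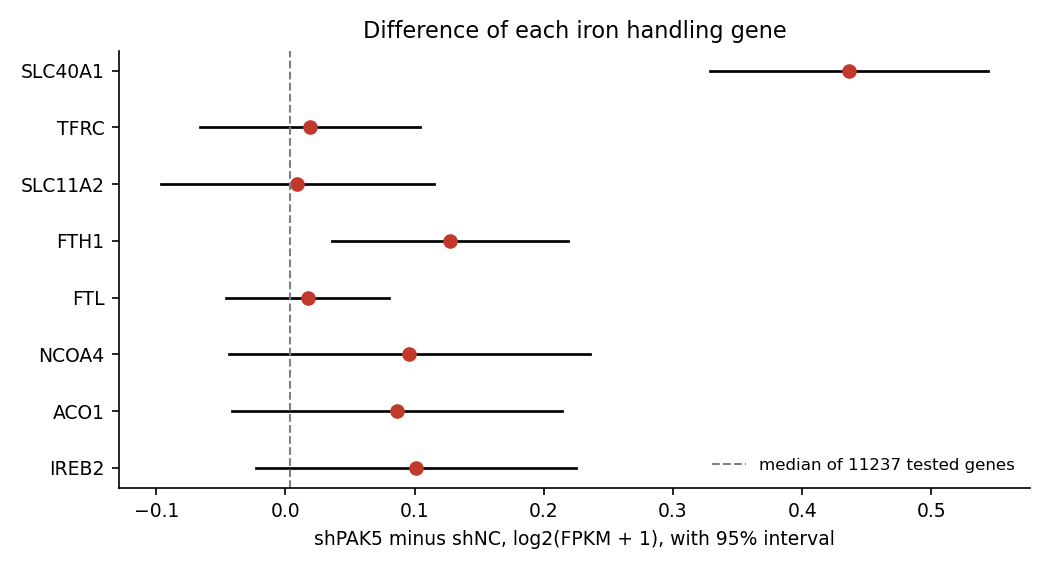
Difference of each iron handling gene, shPAK5 minus shNC on the log2(FPKM + 1) scale (points), with its 95% interval from the limma fit over all tested genes (lines) and the median of all tested genes (dashed). SLC40A1 stands at 0.44, FTH1 at 0.13, and the intervals of the other 6 genes include 0.

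Over the 8 members that passed the filter, all 8 differences were positive with all libraries, although that of TFRC turned to -0.00 without shNC replicate 3 and that of SLC11A2 to -0.01 without shNC replicate 1. Their median was 0.09, with or without SLC40A1, and over the 11237 tested genes the median was 0.00 and 51.3% of differences were positive. The limma fit called 1 of the 8, SLC40A1, at a Benjamini-Hochberg adjusted p of 0.05, where 0.116% of all tested genes were called. The groups did not overlap with shPAK5 higher in 2 of the 8, where 12.6% of all tested genes did so. Since the comparison had been used to choose SLC40A1, nothing is read from these shares. The call of SLC40A1 was lost without each library in turn except shNC replicate 1, while its log2 difference stayed between 0.42 and 0.45. Without shNC replicate 1 the log2 difference was 0.12 for FTH1, 0.14 for IREB2, 0.11 for ACO1, 0.03 for TFRC and 0.01 for FTL.

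The order of the levels differed between the groups only by the position of SLC40A1, which ranked 6 of 10 in shPAK5 and 8 of 10 in shNC. Per length, FTL was the most abundant of the 10 genes, and FTH1, TFRC, NCOA4 and ACO1 followed in both groups without overlap between neighbours. In shPAK5 the next were SLC40A1 at 9.90 FPKM and IREB2 at 9.74 FPKM, whose libraries overlapped, and then SLC11A2 at 8.56 FPKM. In shNC the next were IREB2 at 9.02 FPKM, SLC11A2 at 8.50 FPKM and SLC40A1 at 7.06 FPKM, with no overlap between them. FTL ranked 17 and FTH1 ranked 42 among the 58735 genes by mean FPKM, TFRC ranked 484, and SLC40A1 ranked 4727.

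Ferroportin was then set against each other gene within the same library, which leaves out the scaling between libraries. Per 100 FPKM of TFRC there were 12.8, 12.8 and 12.9 FPKM of SLC40A1 in shPAK5 replicates 1 to 3, against 9.23, 9.29 and 9.22 FPKM in shNC replicates 1 to 3. Relative to its mean this was the tightest of the 7 ratios, with an SD of 0.330% of the mean in shPAK5 and 0.405% in shNC, and it was 1.38 times as high in shPAK5. With 493 to 772 reads per library behind SLC40A1, counting error alone is larger than this spread, so its tightness is not read as a result. Per 100 FPKM of FTL there were 0.455 ± 0.00692 FPKM of SLC40A1 in shPAK5 and 0.328 ± 0.0109 FPKM in shNC, and per 100 FPKM of FTH1 there were 1.499 ± 0.0414 FPKM in shPAK5 and 1.17 ± 0.0663 FPKM in shNC (SD, n = 3 each). The ratio to FTH1 differed least between the groups, at 1.28 times, and the ratio to SLC11A2 most, at 1.39 times. No ratio overlapped between the groups, and each contains the gene that had been picked for its difference.

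**Figure D4:**
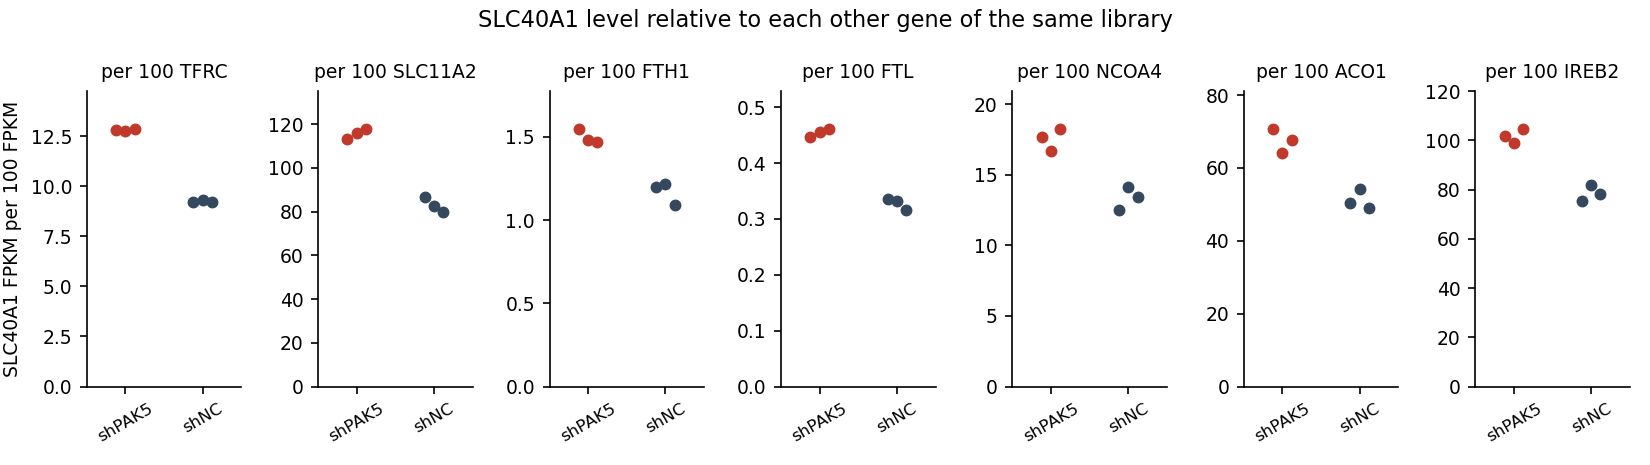
FPKM of SLC40A1 per 100 FPKM of each other expressed gene of the same library (points), with y axes that start at 0. In all 7 panels the 3 shPAK5 libraries lie above the 3 shNC libraries, and for TFRC they sit at 12.8 to 12.9 against 9.22 to 9.29.

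The 5 protein-coding genes whose log2(FPKM + 1) followed SLC40A1 most closely over the 6 libraries, out of 9996 compared, included ALDH1A1, TNFSF15, TFDP2 and ANXA13, with Pearson's r between 0.990 and 0.996. With 6 libraries in 2 groups this likeness mostly repeats the difference between the groups and is given as a description only. Their differences varied in size: TFDP2, a partner of E2F factors, was at 4.62 ± 0.0383 FPKM in shPAK5 and 4.19 ± 0.0366 FPKM in shNC, and ANXA13, an annexin known from intestine, was at 88.5 ± 1.83 FPKM in shPAK5 and 76.5 ± 1.29 FPKM in shNC (SD, n = 3 each).

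Intestinal epithelium is a main site of ferroportin in the body. Of 6 intestinal markers 3 were above 1 FPKM, VIL1, CDH17 and LGALS4. In these 3 each shPAK5 library lay above each shNC library, as in 12.6% of all tested genes. VIL1 passed in limma (adjusted p = 0.0261), as did 0.116% of all tested genes. CDH17 (limma adjusted p = 0.171) and LGALS4 (limma adjusted p = 0.145) did not pass. The list summed to 621 to 634 FPKM in shPAK5 and to 570 to 574 FPKM in shNC, while the transcription factor gene CDX1 had 0 reads in all libraries and CDX2 and FABP1 were near 0. Their part in the result was not tested. Markers of the other cell types known for iron traffic were low. The macrophage markers CD163, MARCO and FCGR3A had 0 reads, and the list summed to at most 1.51 FPKM in any library. EPOR, at 1.85 ± 0.168 FPKM in shPAK5 and 1.86 ± 0.216 FPKM in shNC (SD, n = 3 each), made up most of the list of red cell precursors. This list summed to 2.94 to 3.71 FPKM in shPAK5 and to 2.08 to 2.94 FPKM in shNC. In it the globin gene HBA2 had 4 to 23 reads per library and averaged 1.35 ± 0.256 FPKM in shPAK5 and 0.665 ± 0.365 FPKM in shNC (SD, n = 3 each, limma adjusted p = 0.221), with each shPAK5 library above each shNC library, while HBB had at most 1 read in a library. The part of these markers in the result was not tested, and HBA2 can share reads with its near-identical copy HBA1, so its count is uncertain. ALB, made by hepatocytes, had at most 3 reads, and the hepatocyte list, nearly all SERPINA1, summed to 2.73 to 2.92 FPKM in shPAK5 and to 3.25 to 3.58 FPKM in shNC.

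The rest of the iron pathway was read from 90 further genes chosen by role, of which 73 passed the filter. None of the 73 passed in limma at an adjusted p of 0.05 or in limma-voom on the recovered reads, where 0.116% and 1.04% of all tested genes were called. An unadjusted limma p under 0.05 was found for 16 of the 73, or 21.9%, against 17.0% of all tested genes, and in 16 of the 73 the groups did not overlap, against 23.1% of all tested genes. The median difference was 0.03, against 0.00 over all tested genes, with 42 positive and 31 negative. Without shNC replicate 1 limma called 6 of the 73, or 8.22%, where 8.14% of all tested genes were called: CYBRD1, STEAP1, STEAP2, BACH1 and SMAD5 higher and SLC25A28, which brings iron into mitochondria, lower.

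Genes of uptake and reduction had the highest list median, 0.10 over 9 tested genes, 6 of them positive. STEAP2, a metalloreductase, was at 10.3 ± 0.549 FPKM in shPAK5 and 8.12 ± 1.16 FPKM in shNC (SD, n = 3 each), a log2 difference of 0.31 ± 0.09 (SE) with a limma adjusted p of 0.214. CYBRD1, the duodenal ferric reductase, was at 44.3 ± 1.66 FPKM in shPAK5 and 37.3 ± 3.19 FPKM in shNC (limma adjusted p = 0.188). LCN2, which binds iron carriers of bacteria, was at 506 ± 1.99 FPKM in shPAK5 and 471 ± 11.5 FPKM in shNC (limma adjusted p = 0.219). In these 3 genes each shPAK5 library lay above each shNC library, and none passed. In 4 of the 9 tested genes the groups did not overlap, or 44.4%, against 21.9% of the 73 genes and 23.1% of all tested genes. TF and LTF, the genes of the plasma and milk iron carriers, had 0 reads in all libraries.

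Genes of storage other than ferritin and of heme breakdown had a median of 0.01 over 6 tested genes. PCBP1, a chaperone that hands iron to ferritin, was at 92.3 ± 4.005 FPKM in shPAK5 and 100.1 ± 3.86 FPKM in shNC (SD, n = 3 each), with a limma adjusted p of 0.274. BLVRB, a biliverdin reductase, was at 67.5 ± 2.21 FPKM in shPAK5 and 69.5 ± 5.62 FPKM in shNC. FTMT, the gene of mitochondrial ferritin, had 0 reads. On the export side, 1 of 6 genes passed the filter, the heme exporter FLVCR1, at 5.34 ± 0.345 FPKM in shPAK5 and 5.37 ± 0.597 FPKM in shNC. ABCG2, a transporter that also carries heme, was at 0.797 ± 0.0685 FPKM in shPAK5 and 0.710 ± 0.152 FPKM in shNC.

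Genes that act on hepcidin had a median of 0.03 over 11 tested genes. SMAD5, a transducer of BMP signals, was at 7.86 ± 0.117 FPKM in shPAK5 and 6.77 ± 0.859 FPKM in shNC (limma adjusted p = 0.274), and NEO1, a partner of hemojuvelin, at 14.7 ± 0.304 FPKM in shPAK5 and 13.2 ± 0.670 FPKM in shNC (limma adjusted p = 0.232). FURIN, which cleaves prohepcidin, was at 14.1 ± 0.375 FPKM in shPAK5 and 13.8 ± 1.47 FPKM in shNC, and HJV, the hemojuvelin gene, had 0 reads. Of the genes that control the stability of the regulatory proteins, FBXL5, the iron-sensing ubiquitin ligase subunit that marks IRP2 for degradation, was at 9.39 ± 0.125 FPKM in shPAK5 and 8.90 ± 0.693 FPKM in shNC. HERC2, a ligase for NCOA4, was at 4.93 ± 0.249 FPKM in shPAK5 and 5.35 ± 0.843 FPKM in shNC.

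Transcription factors known to act on iron genes had a median of 0.08 over 8 tested genes. BACH1, a heme-sensitive repressor of ferritin, ferroportin and heme oxygenase genes, was at 17.3 ± 0.761 FPKM in shPAK5 and 14.7 ± 0.956 FPKM in shNC (SD, n = 3 each), a log2 difference of 0.22 ± 0.06 (SE) with a limma adjusted p of 0.191. KEAP1, the inhibitor of NRF2, was at 36.03 ± 1.54 FPKM in shPAK5 and 39.7 ± 1.43 FPKM in shNC (limma adjusted p = 0.236). MYC was at 52.4 ± 0.906 FPKM in shPAK5 and 54.6 ± 1.89 FPKM in shNC. BACH1 did not overlap between the groups, with shPAK5 higher, nor did KEAP1, with shPAK5 lower, and neither passed. In 3 of the 8 tested genes the groups did not overlap, or 37.5%, against 23.1% of all tested genes.

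Mitochondrial iron and iron-sulfur cluster genes had a median of 0.06 over 18 tested genes and cytosolic cluster genes one of -0.05 over 9. ISCA2, a late-acting cluster assembly factor, was at 9.36 ± 0.751 FPKM in shPAK5 and 8.03 ± 0.413 FPKM in shNC (limma adjusted p = 0.228). HSPA9, the mitochondrial chaperone of cluster transfer, was at 95.5 ± 0.883 FPKM in shPAK5 and 89.6 ± 2.73 FPKM in shNC (limma adjusted p = 0.279). Among the cytosolic genes, CIAO2B was at 54.1 ± 1.49 FPKM in shPAK5 and 54.5 ± 1.71 FPKM in shNC, CIAO1 at 34.0 ± 1.79 FPKM in shPAK5 and 35.3 ± 1.09 FPKM in shNC, and CIAO3 at 3.28 ± 0.199 FPKM in shPAK5 and 3.60 ± 0.457 FPKM in shNC. In these 3 cytosolic genes the groups overlapped, while ISCA2 and HSPA9 were higher in each shPAK5 library without passing. Of the 18 tested mitochondrial genes 2 did not overlap between the groups, or 11.1%, against 23.1% of all tested genes.

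Genes of heme synthesis and transport had a median of -0.05 over 9 tested genes. CPOX, which makes protoporphyrinogen, was at 8.41 ± 0.427 FPKM in shPAK5 and 7.15 ± 0.275 FPKM in shNC (limma adjusted p = 0.190), and ALAS1, the first enzyme of the pathway in most tissues, at 37.0 ± 0.404 FPKM in shPAK5 and 40.3 ± 0.389 FPKM in shNC (limma adjusted p = 0.215). Neither overlapped between the groups, in opposite directions, and neither passed. Of the heme list, 3 of 9 had their libraries fully separated by group, or 33.3%, where the share over all tested genes was 23.1%. UROD was at 23.8 ± 1.00 FPKM in shPAK5 and 25.9 ± 1.19 FPKM in shNC.

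**Figure D5:**
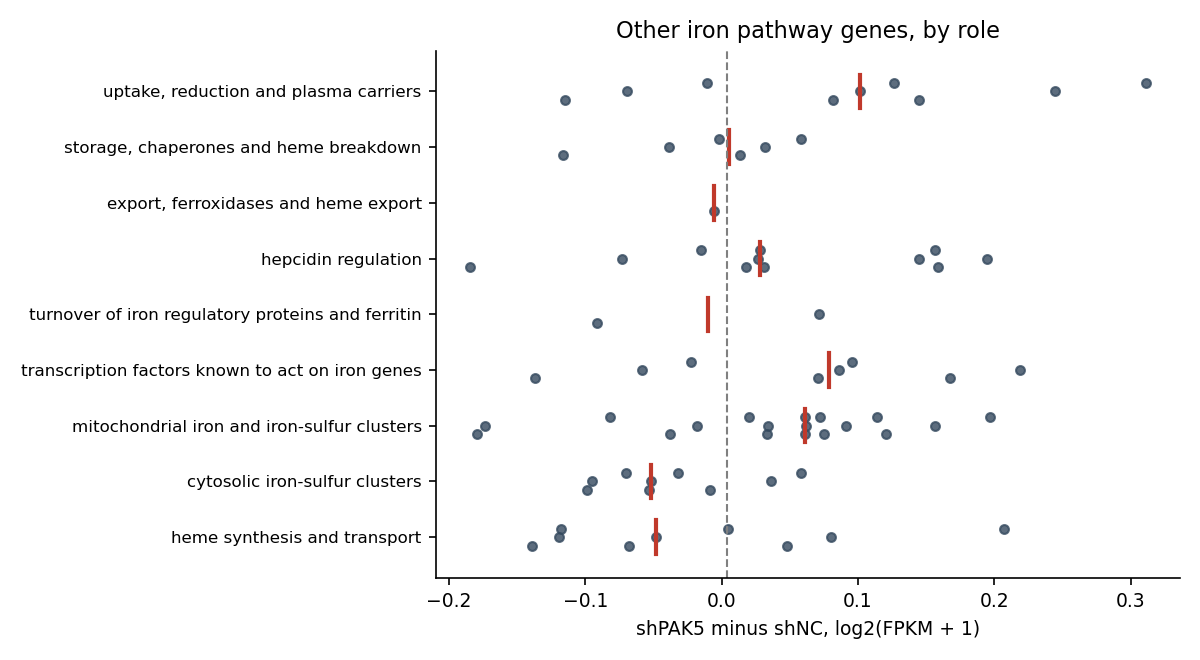
Difference of each of the 73 tested further iron pathway genes (points), shPAK5 minus shNC on the log2(FPKM + 1) scale, by role, with the median of each list (short line) and of all tested genes (dashed). The values run from -0.18 to 0.31, and STEAP2 has the highest.

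Genes other than the 10 that hold the plain stem-loop pattern in an untranslated region were read in the same way. Of 14 with a match in the 5′ UTR, 9 were tested and none was called in limma or in limma-voom, 2 had an unadjusted limma p under 0.05, in 2 the groups did not overlap, and the median difference was 0.00. Of 42 with a match in the 3′ UTR, 29 were tested and 0 were called in limma, 8 had an unadjusted limma p under 0.05, in 10 the groups did not overlap, and the median difference was 0.04. Over all tested genes 17.0% had such a p and in 23.1% the groups did not overlap. The limma-voom fit, which called 1.04% of all tested genes, called 1 of the 29, VSTM2L, named here because it was called. It was at 4.56 ± 0.535 FPKM in shPAK5 and 2.41 ± 0.476 FPKM in shNC (SD, n = 3 each), with an adjusted p of 0.0164 in limma-voom and of 0.0816 in limma.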

How the data were processed

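RNA was sequenced in 3 shPAK5 and 3 shNC libraries, grouped and numbered by their titles. Per the labels' protocols, libraries were made with an NEBNext Ultra kit. Aligner, counter and strand use are not stated in the sources used here. The table the authors deposited holds FPKM per gene, per the file headers. The submitters' processing notes name mm10, but each of the 58735 rows matched human GENCODE 29 (GRCh38) in gene ID, coordinates and exonic length, and none is a mouse ID. FPKM times length gave whole multiples of 1 step per library for 100% of values, within 0.001 or a millionth of the read number where that is more, which gave the reads.

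limma 3.58.1 in R 4.3.3 (lmFit, eBayes with trend) was run on log2(FPKM + 1), with no term beside the group, over the 11237 genes that averaged 1 FPKM or more, with Benjamini-Hochberg adjustment at 0.05. Scripts were tested on simulated data. Values of 0 were given a limit of 3 reads, for counting error only. No 2 replicates agreed within sampling noise. An exact permutation test of 3 against 3 cannot go below p = 0.1 and was not used. The 10 members and all lists were chosen with earlier results of these data known. Beside the members, named genes are PAK5, the markers, any pathway gene past the threshold, the 2 most abundant and the 1 with the largest difference per role list, the leading ferritin pseudogenes and the 5 genes most like SLC40A1. Other genes named for low levels, the 6 called without shNC replicate 1 where no rule gave them, and VSTM2L were named after their values were seen. Values of 3 genes that the rules would name are not reported here. The 15 alternatives were 2 pseudocounts, 2 filters, 2 scalings, limma-voom, array weights, a replicate block and each library left out. Figures were drawn with matplotlib 3.10.9.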

Additional observations from a re-analysis of the deposited data

How the results depend on the processing

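The difference of SLC40A1 was positive in all 15 alternatives, from 0.42 to 0.49 on the log2 scale, and the higher values came with pseudocounts of 0.1 and 0.01 (0.48 and 0.49) and limma-voom (0.49). FTH1 stayed between 0.09 and 0.16, NCOA4 between 0.06 and 0.16, ACO1 between 0.05 and 0.12, IREB2 between 0.08 and 0.14 and FTL between 0.01 and 0.03, while TFRC and SLC11A2 were each negative in 1 alternative, as given above. The number of members called was 1 of 8. It was 0 with no filter on low values and with the replicate block, and 0 to 1 when each library was left out. With array weights it was 3 (SLC40A1, NCOA4 and IREB2), where 28.4% of all tested genes were called. Of the 73 other iron genes 0 were called in the main fit. Under quantile normalization 1 (LCN2) was called, or 1.37%, against 0.178% of all tested genes. With array weights 28 were called, or 38.4%, against 28.4% of all tested genes. When each library was left out, 0 to 6 were called. Over all genes the 13 calls became 7 with no filter, 31 at a mean of at least 5 FPKM, 20 under quantile normalization, 117 in limma-voom, 3187 with array weights, 2 with the replicate block and 2 to 915 when each library was left out, the highest without shNC replicate 1. The causes were not tested. The replicate numbers pair nothing that the labels state: deviations of same-numbered libraries correlated at 0.11, 0.05 and 0.02, and shPAK5 replicate 3 and shNC replicate 2, for example, correlated at 0.10, more than either did with its own number. Depth limits what can be said of HEPH and HAMP, with at most 8 reads in a library.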
